A study of Mus musculus with 12 samples.

Results

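The sites described here were poly(A) site clusters that carried the canonical polyadenylation signal and lay upstream of at least 1 other site on their strand. They were chosen by position and signal alone. Clusters of the same chromosome and strand were joined into a run where the gap between their edges was 2000 nt or less, the most downstream cluster of each run was set aside, and of the rest those listed with AATAAA at a distance of 15 to 30 nt were kept. This gave 18849 canonical upstream sites among the 145179 clusters of the catalogue (12.98%), in 13118 of the 25530 runs of 2 or more sites.

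A transcript is given its 3' end by cleavage and addition of a poly(A) tail. The AATAAA hexamer, read as AAUAAA in the RNA, lies a short way before the cleavage point and is recognised by CPSF, the complex that also holds the cleaving enzyme, and single-base variants of it also serve as signals. Many genes carry several poly(A) sites in a row. A site upstream of the last one shortens the 3' untranslated region, or, inside an intron, ends the transcript before the coding sequence is complete. U1 snRNP, which binds 5' splice sites, is known to hold back such early ends, and the RNA exosome, of which Exosc3 is a subunit, removes many of the short RNAs they leave.

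The clusters came from mouse embryonic stem cells, of clones derived from the V6.5 line that carried a conditional knockout of Exosc3 (Exosc3 CKO) and were kept in doxycycline at 0.1 μg/ml. The 12 libraries formed 6 groups of 2. Cells without doxycycline (Exosc3-) and with it (Exosc3+) were collected at 3 days. At 2 days there were cells without doxycycline given an antisense morpholino oligonucleotide (AMO) against U1, cells without doxycycline given a scrambled (Scr) AMO, cells with doxycycline given the U1 AMO, and cells with doxycycline given the Scr AMO. The AMOs were nucleofected at 15 μM, and RNA was harvested 8 hours later. Poly(A) RNA was read from its tail by 2P-seq, a 3'-end sequencing method.

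The catalogue gave for each cluster its position in mm9, its strand, the listed hexamer, the hexamer distance and an identifier. Of its 7 columns, 0 held a value of a library, so the depth of the libraries is unknown, the level of a site in any of the 6 groups was not analysed here, and neither the cell type nor the loss of Exosc3 could be checked. Errors are therefore given as 95% Wilson intervals over sites, which cover counting error only, or as the SD over the 19 autosomes. Comparisons used the difference per autosome in a permutation test that flips signs (2-sided, threshold 0.05). P-values were adjusted by Benjamini-Hochberg over 12 comparisons. In a subset such as runs of 2 they were adjusted over those comparisons that could be made there. Neighbouring sites share their transcripts and autosomes are not biological replicates, so a p-value here speaks of evenness across chromosomes and not of other cultures. Priming inside A-rich stretches, which makes false 3' ends in this kind of assay, was not tested.

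The canonical upstream sites were spread over both strands and all 19 autosomes. The plus strand held 9482 and the minus strand 9367, and they made up 26.1% of the upstream sites of either strand. Of them, 18225 lay on autosomes, 593 on the X chromosome and 31 on the Y chromosome or unplaced sequence. Among the autosomes their share of upstream sites was lowest on chromosome 11 (23.2%, interval 22.1 to 24.3%) and highest on chromosome 18 (29.3%, interval 27.4 to 31.2%), and on the X chromosome it was 31.1% (interval 29.1 to 33.3%).

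They stood in runs of all sizes. Of the 18849, 22.3% lay in runs of 2 sites, 16.8% in runs of 3, 22.3% in runs of 4 or 5, 25.4% in runs of 6 to 10 and 13.1% in longer runs. A run held 1 of them in 9362 cases, 2 in 2503 cases and 5 or more in 167 cases, with at most 14. They were the most upstream site of their run in 7603 cases and a middle site in 11246. The next site downstream lay at a median gap of 402 nt (quartiles 135 and 942 nt), and the end of the run at a median of 1049 nt (quartiles 400 and 1877 nt). The run ended within 500 nt of 29.4% of them and more than 2000 nt away from 21.8%.

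The limits of the rule cut through continuous distributions. Just inside the distance window, 308 upstream AATAAA sites had the hexamer at 15 nt and 319 at 30 nt, and just outside it 234 had it at 14 nt and 250 at 31 nt. In all, 80.7% of the 23367 upstream sites with AATAAA fell in the window. Canonical sites whose next same-strand neighbour lay in the last 50 nt up to the limit of 2000 nt numbered 148, and 173 had it in the first 50 nt beyond that limit.

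Some single runs show what such arrays look like. They were singled out by rule and are named by position, since gene annotation of the build was not used here. The pair nearest the typical case lay on the minus strand of chromosome 4, with a cluster 6 nt wide at 41168817 to 41168822 and AATAAA at 22 nt, and the run-ending cluster 578 nt further down at 41168230 to 41168238, 9 nt wide with AATAAA at 27 nt. It represents the 2160 runs of 2 in which both sites carried the canonical signal, whose median gap was 576.5 nt.

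The longest run made only of canonical sites was found on chromosome 9, plus strand, at 72458233 to 72460312. It held 7 clusters of 9 to 28 nt, each with AATAAA at 21 to 30 nt. Its first site stood 1621 nt before the second, and the other 5 gaps were 106, 41, 96, 35 and 50 nt. Runs made only of canonical sites numbered 2515 and held 2955 of the upstream sites described here. They were 18.7% of runs of 2, 5.65% of runs of 3 and 2.04% of runs of 4.

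The run with the most canonical upstream sites lay on the minus strand of chromosome 10 from 116781522 to 116793087 and held 14 of them among 32 sites. Their hexamer distances ran from 15 to 30 nt, and 6 of them followed each other without another kind of site between them, at gaps of 330, 1200, 90, 33 and 840 nt. This run ended with ATTAAA at 23 nt in a cluster 1 nt wide. The site farthest from the end of its run lay on the minus strand of chromosome 11 at 51419011 to 51419039, with AATAAA at 24 nt, 12560 nt before the run-ending site and with 30 sites downstream of it. Only 5 of the 32 sites of that run were canonical upstream sites, 6 had ATTAAA and 8 had no hexamer.

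The widest canonical upstream site was a cluster of 1851 nt on the minus strand of chromosome 19 at 5841908 to 5843758, with AATAAA at 25 nt. It lay in a run of 28 sites, of which 3 were canonical upstream sites and 11 had no hexamer. With so wide a cluster the listed distance says little about any single cleavage point.

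**Figure D1:**
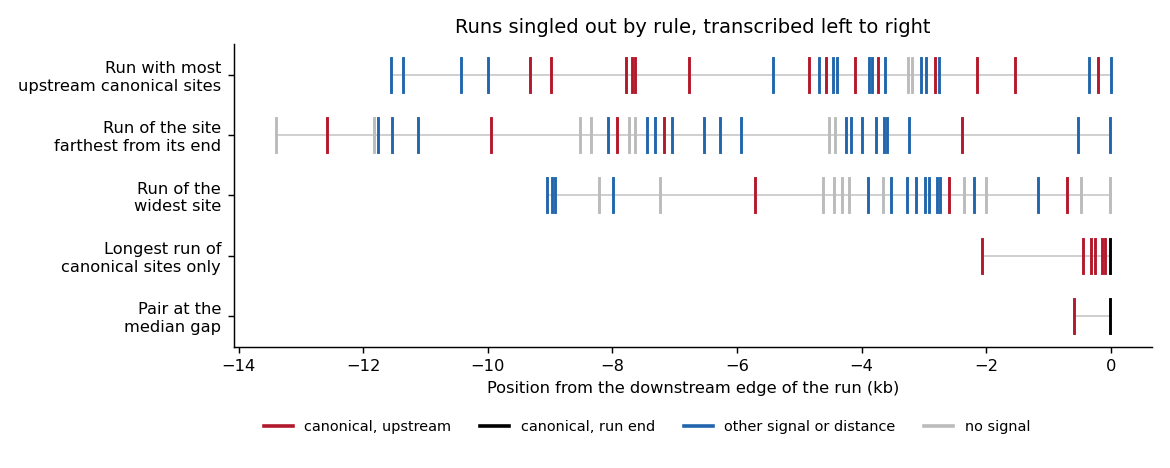
Position in kb, counted from the downstream edge of each run, of every cluster in 5 runs singled out by rule, drawn at the cluster's centre with no scale for width and transcribed from left to right. Canonical upstream sites are red, canonical run-ending sites black, sites with another signal or distance blue and sites without a signal grey. The run with the most canonical upstream sites holds 14 of them among 32 sites, while the run below it holds 5 among 32.

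The first result concerns where in a run the canonical signal stands. Over the last sites of a run it was more frequent the fewer sites lay downstream. The canonical signal at 15 to 30 nt was listed for 34.5% of sites with 1 site downstream of them in the run (interval 33.9 to 35.1%, autosomes 34.5% ± 2.10, SD, n = 19), 27.7% with 2 (interval 27.0 to 28.5%), 23.4% with 3 (interval 22.6 to 24.3%), 20.2% with 4 (interval 19.2 to 21.2%), 17.5% with 6 (interval 16.2 to 18.9%), 15.4% with 7 and 15.6% with 8, against 44.9% of the run-ending sites themselves (interval 44.3 to 45.5%, autosomes 44.9% ± 2.01, SD, n = 19). The intervals of sites with 1, 2, 3 and 4 sites downstream did not overlap each other. The slope was shallower among sites whose next site lay over 100 nt away. There the shares were 35.9% with 1 site downstream, 29.7% with 2, 25.7% with 3, 22.4% with 4, 20.5% with 6 and 18.5% with 7.

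Over all upstream sites the share was 26.2% ± 1.78 (SD, n = 19 autosomes) against 44.9% ± 2.01 of run-ending sites. The difference was -18.8 percentage points ± 1.62 and was negative on every autosome (adjusted p = 4e-05, permutation test). Among sites over 100 nt from their neighbours it was -16.15 percentage points (adjusted p = 4.4e-05, permutation test). In runs of 2 sites it was -9.37 percentage points (adjusted p = 7.3e-05, permutation test). The shares there were 36.6% of upstream and 45.9% of run-ending sites as means of autosomes. Both of these settings were chosen after seeing the data.

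At the last 2 sites of a run, the shares of runs of 3 to 8 lay near each other, and runs of 2 were higher at the site before the run end. That site was canonical in 36.5% of runs of 2 (interval 35.6 to 37.3%), 33.1% of runs of 3 (interval 31.8 to 34.4%), 33.5% of runs of 4 (interval 31.7 to 35.2%), 32.3% of runs of 5, 33.4% of runs of 6, 30.5% of runs of 7 (interval 27.5 to 33.7%) and 32.5% of runs of 8 (interval 28.9 to 36.4%). The run-ending site was canonical in 46.0% of runs of 2 (interval 45.1 to 46.9%), in 43.6 to 45.1% of runs of 3 to 7 and in 41.0% of runs of 8 (interval 37.09 to 44.98%). With 2 sites downstream, the share ran from 25.1% in runs of 5 (interval 23.1 to 27.1%) to 29.55% in runs of 3 (interval 28.3 to 30.8%). Differences between run sizes were not tested. The first site of a run was canonical in 36.5% of runs of 2, 25.2% of runs of 4 and 17.0% of runs of 8 (interval 14.2 to 20.3%).

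ATTAAA, the main variant signal, showed a shallower profile. At 15 to 30 nt it was listed for 14.3% of sites with 1 site downstream, 11.8% with 3 and 10.7% with 6, against 14.3% of run-ending sites. A-rich hexamers, here those with 5 or more A other than AATAAA, ran the other way, with 7.71%, 11.6% and 12.9% at these steps against 5.59% of run-ending sites. Sites without a hexamer made up 11.01%, 16.3% and 20.2% at these steps, against 6.96% of run-ending sites.

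**Figure D2:**
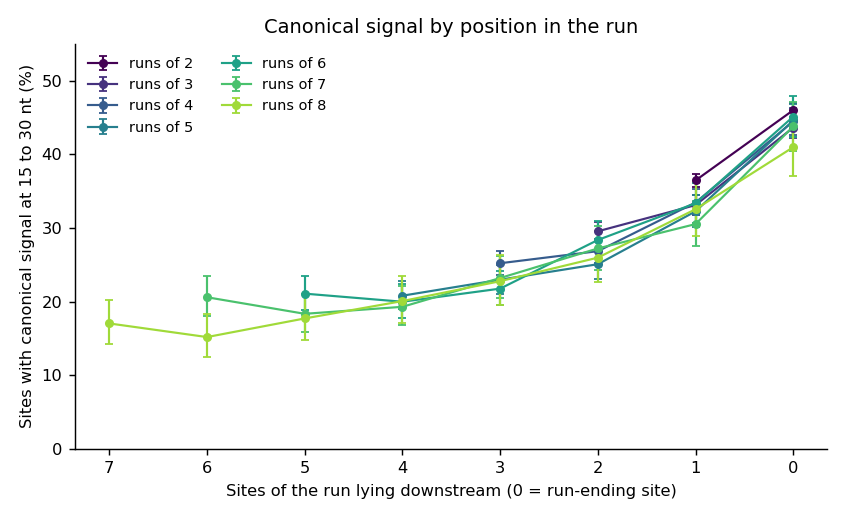
Percent of sites with the canonical signal at 15 to 30 nt, against the number of sites of the run that lie downstream, with a line for each run size from 2 to 8 and bars for 95% Wilson intervals. The lines lie close together and reach 41.0 to 46.0% at the run-ending site, against 36.5% down to 17.0% at the most upstream site.

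Pooled over runs of 3 or more, no difference passed the test between the most upstream site and the middle sites. The canonical signal was listed for 24.2% ± 1.86 of the most upstream and 24.2% ± 2.07 of the middle sites (SD, n = 19 autosomes), a difference of 0.00726 percentage points ± 2.11, positive on 9 of 19 (adjusted p = 0.988, permutation test). At a fixed run size, the first site was canonical in 29.55% of runs of 3 (interval 28.3 to 30.8%). The middle site was canonical in 33.1% of them (interval 31.8 to 34.4%). The first site had 25.2% against 26.85 and 33.5% in runs of 4, and 20.8% against 22.97 to 32.3% in runs of 5. In runs of 8 it had 17.0% against 15.2 to 32.5%, with only the second site lower. Runs of 6 and 7 also had middle sites below the first. Shares by run size were not tested. The pooled comparison depended on how runs were drawn. It was 3.46 percentage points when runs were joined at gaps up to 500 nt (adjusted p = 0.00022, permutation test), -1.75 without runs of more than 10 sites (adjusted p = 0.00141, permutation test) and -3.97 among sites over 100 nt from their neighbours (adjusted p = 9.2e-05, permutation test).

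The second result concerns the gap to the next site. Upstream sites with a close neighbour downstream were canonical less often than those with a distant one. Of sites whose next site lay within 100 nt, 18.7% ± 1.93 were canonical, against 34.1% ± 3.02 of sites whose next site lay over 1000 nt away (SD, n = 19 autosomes). The difference of -15.4 percentage points ± 2.69 was negative on all 19 (adjusted p = 4e-05, permutation test). In runs of 2 it was smaller, at -6.69 ± 6.45, with 32.6% at the short and 39.3% at the long gaps (adjusted p = 0.000935, permutation test).

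Between these ends the share was 17.8% at gaps of 26 to 50 nt (interval 17.1 to 18.6%), 20.4% at 76 to 100 nt (19.2 to 21.6%), 23.8% over 100 and up to 200 nt (22.97 to 24.55%), 26.9% up to 500 nt (26.2 to 27.6%), 31.04% up to 1000 nt (30.2 to 31.9%), 33.1% up to 1500 nt (32.1 to 34.2%) and 34.6% up to 2000 nt (33.3 to 35.8%). ATTAAA at 15 to 30 nt also had its lower shares at short gaps, with 9.92% at 26 to 50 nt and 14.4% over 1500 nt, while A-rich hexamers had 13.8% and 8.61% at those gaps.

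Gaps could in turn be compared between kinds of upstream site. The mean log2 gap to the next site was 8.38 ± 0.054 for canonical upstream sites and 7.84 ± 0.059 for other upstream sites (all that were not canonical, AATAAA at other distances included), a difference of 0.54 ± 0.062 (SD, n = 19 autosomes) and positive on every one of them (adjusted p = 4e-05, permutation test). As medians over sites these gaps were 402 and 239 nt, and in runs of 2 the difference was 0.20. Against upstream ATTAAA sites at 15 to 30 nt, whose median gap was 339.5 nt, the difference was 0.17 ± 0.15 on the log2 scale, positive on 17 autosomes (adjusted p = 0.00044, permutation test). In runs of 2 sites that difference was 0.028 (adjusted p = 0.613, permutation test).

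**Figure D3:**
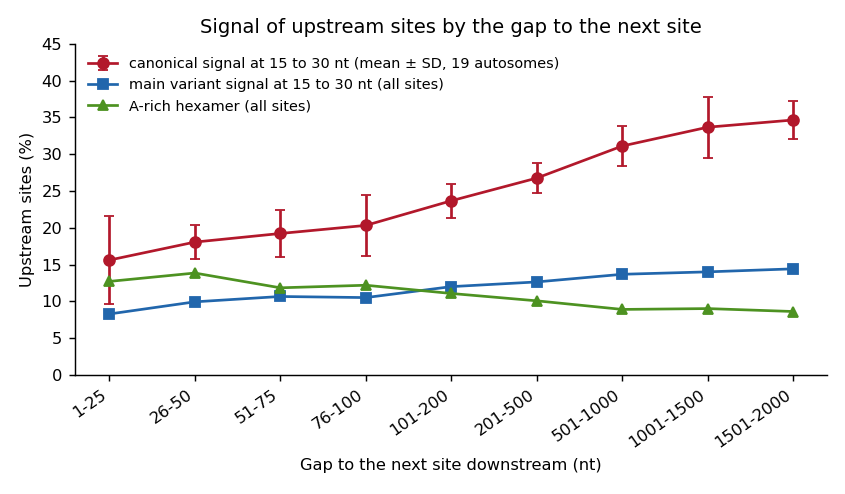
Percent of upstream sites with the canonical signal at 15 to 30 nt (red, mean and SD over 19 autosomes), the main variant signal at 15 to 30 nt (blue) and an A-rich hexamer at any distance (green), by the gap in nt to the next site downstream. The canonical share is 17.8% at 26 to 50 nt and 34.6% over 1500 nt, counted over all sites, while the A-rich share is 13.8% and 8.61%.

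The third result concerns the signal of the next site downstream. After a canonical upstream site, the next site was more often canonical itself. To keep the listed distances, which reached 100 nt, from taking in the upstream site's own hexamer, gaps over 100 nt were used. The next site carried AATAAA at 15 to 30 nt after 42.0% ± 2.72 of canonical upstream sites and after 32.4% ± 2.15 of other upstream sites, a difference of 9.51 percentage points ± 2.66 (SD, n = 19 autosomes), positive on each (adjusted p = 4e-05, permutation test). After upstream ATTAAA sites the share was 38.6% ± 2.46.

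The signals of the next sites are shown in the order of their frequency after canonical upstream sites, to show which variants were listed besides the canonical signal. The canonical signal is printed wholly in capitals, and in each variant only the base that differs from AATAAA is in capitals.
canonical: AATAAA
main variant: aTtaaa
A1T variant: Tataaa
A2G variant: aGtaaa
A5C variant: aataCa
T3G variant: aaGaaa
Of the 15217 canonical upstream sites with the next site over 100 nt away, AATAAA at any distance followed 48.6%, ATTAAA (A2T, positions counted from 1 at the 5' end of the hexamer) followed 17.4%, TATAAA (A1T) 4.71%, AGTAAA (A2G) 3.67%, AATACA (A5C) 2.18% and AAGAAA (T3G) 2.14%. After the 37439 other upstream sites these were 37.7%, 16.0%, 5.05%, 3.86%, 2.29% and 3.23%. Sites with no hexamer followed 7.45% of canonical upstream sites (interval 7.05 to 7.88%) and 13.5% of other upstream sites (interval 13.2 to 13.9%).

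The difference in the canonical share of the next site had its higher values at short gaps. Over 100 and up to 200 nt it was 12.4 percentage points ± 5.58 (SD, n = 19 autosomes), positive on 19 of 19. Between 200 and 500 nt it was 10.1 ± 3.47 and up to 1000 nt 8.26 ± 4.32, both positive on 19. Up to 1500 nt it was 6.03 ± 6.01, positive on 17. Over 1500 nt it was 1.74 ± 7.65, positive on 10, with 44.7% after canonical upstream sites (interval 42.5 to 47.0%) and 43.5% after other upstream sites (interval 41.9 to 45.1%). After upstream ATTAAA sites at 15 to 30 nt the next site was canonical in 32.4% over 100 and up to 200 nt (interval 29.99 to 34.99%). After canonical upstream sites it was 37.5% at those gaps (interval 35.7 to 39.4%). Over 1500 nt it was 48.4% after ATTAAA sites (interval 44.9 to 51.9%), no lower than after canonical upstream sites. How these differences depend on the gap was not tested.

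Runs of 2 sites allow the same comparison at a fixed run size. With the gap over 100 nt, the run ended in a canonical site in 52.4% ± 4.198 of runs whose upstream site was canonical and in 45.4% ± 2.82 of those whose upstream site was not, a difference of 6.98 percentage points ± 5.58 (SD, n = 19 autosomes), positive on 18 (adjusted p = 0.00033, permutation test). Where the upstream site had ATTAAA at 15 to 30 nt, the run-ending site was canonical in 50.8% of 1464 runs (interval 48.2 to 53.3%), against 52.4% of 3531 runs after a canonical upstream site over all chromosomes (interval 50.72 to 54.01%). These intervals overlap, and that difference was not tested. In runs of 3 with the first gap over 100 nt, the run ended in a canonical site in 46.5% after a canonical first site (interval 43.8 to 49.3%). It was 46.6% after a first site with ATTAAA at 15 to 30 nt and 43.5% after first sites that were not canonical (interval 41.7 to 45.4%). The intervals after canonical and other first sites overlap, and runs of 3 were not tested.

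The site before a canonical middle site was also more often canonical in these counts, a difference that was not tested. Of the 8813 middle sites that were canonical and stood more than 100 nt after the previous site, 29.9% had a canonical site before them (interval 28.9 to 30.8%). Of the 23297 other middle sites, 22.3% did (interval 21.8 to 22.9%).

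**Figure D4:**
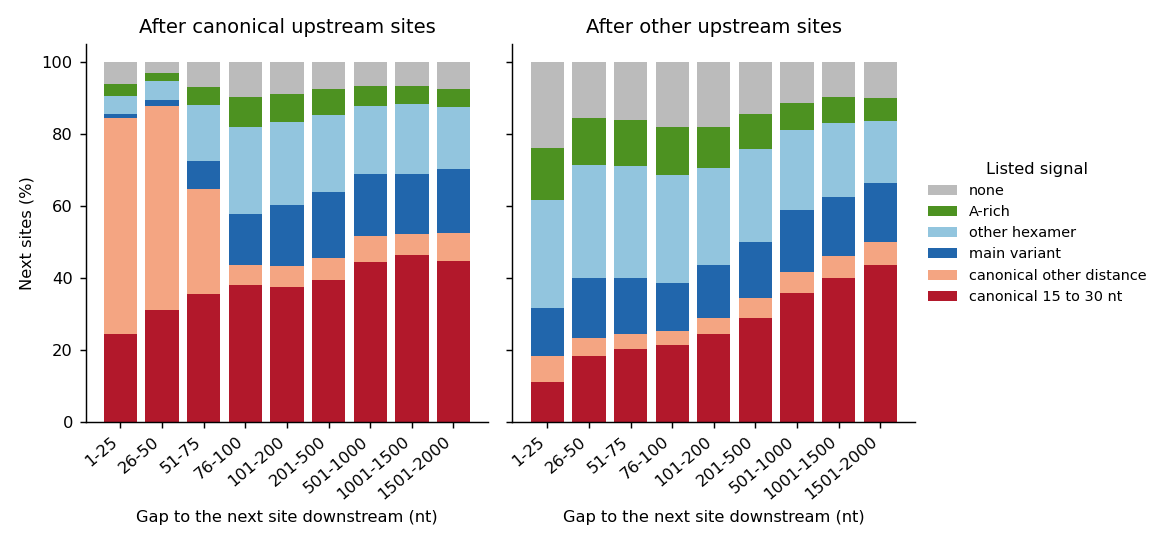
Percent of next sites downstream with each kind of listed signal, by the gap in nt, after canonical upstream sites (left) and after other upstream sites (right), as stacked bars that sum to 100%. At gaps of 26 to 50 nt the canonical signal at another distance makes up 56.8% on the left and 5.07% on the right, and from 76 nt on it stays below 8% on both sides.

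At gaps of up to 75 nt many next sites were listed with what may be the upstream site's own hexamer. At gaps of 26 to 50 nt, 56.8% of the next sites after a canonical upstream site had AATAAA at a distance outside 15 to 30 nt (interval 54.3 to 59.2%), against 5.07% after other upstream sites (interval 4.60 to 5.60%). At 51 to 75 nt it was 29.4% (interval 26.7 to 32.2%) against 4.09%, and at 76 to 100 nt 5.58% (interval 4.21 to 7.37%) against 3.94%. The median AATAAA distance of those next sites that had AATAAA was 63 nt at gaps of 26 to 50 nt and 21 nt at gaps of 76 to 100 nt. Upstream ATTAAA sites at 15 to 30 nt showed a like pattern with their own signal. ATTAAA at any distance was listed for 58.3% of their next sites at 26 to 50 nt, 38.2% at 51 to 75 nt and 17.9% at 76 to 100 nt. After canonical upstream sites these shares of ATTAAA were 1.81%, 7.54% and 14.2%.

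Clusters 1 nt wide allow this to be read exactly, because they leave no doubt about the point from which the distance is counted. There were 160 canonical upstream sites 1 nt wide whose next site was also 1 nt wide, and in 18 of these pairs the upstream AATAAA lay within 100 nt of the next site. All 18 next sites listed AATAAA. In 14 of them the 2 listed distances pointed to the same position, and in the other 4 to a nearer AATAAA. An example is the pair on the minus strand of chromosome 1 at 60045921 and 60045919, whose AATAAA was listed at 19 nt and at 21 nt. It was one of 2 pairs singled out for the smallest gap. The other lay on the minus strand of chromosome 6, at 43253699 to 43253700 and 43253675 to 43253697, with AATAAA at 15 and 21 nt.

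For wider clusters the point inside the cluster is not known, so only a bound can be given. In 93.4% of the next sites at 26 to 50 nt with AATAAA at another distance (848 of 908), the listed distances allowed a hexamer shared with the canonical upstream site. At 51 to 75 nt this was 84.4% (260 of 308). Over all gaps, and counting 16 next sites within 25 nt that were canonical themselves and could also share it, up to 1220 of the 18849 canonical upstream sites (6.47%) may share their AATAAA with the next cluster.

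The fourth result concerns the width of the clusters, that is the spread of the 3' ends joined in one site. Canonical upstream sites were wider as a set than the canonical sites that ended runs, but not in the shortest runs. With run sizes pooled, the median width of middle sites was above that of canonical run-ending sites, and that of the most upstream sites was not. The median width of canonical upstream sites was 15 nt (quartiles 7 and 27 nt). It was 12 nt for canonical run-ending sites (quartiles 5 and 22 nt). Canonical lone sites, which had no neighbour within 2000 nt, had a median of 7 nt (quartiles 2 and 13 nt). The 7603 canonical sites most upstream in their run, runs of 2 included, had a median of 11 nt (quartiles 5 and 22 nt). The 11246 canonical middle sites had a median of 17 nt (quartiles 8 and 30 nt). Of the most upstream sites, 4201 came from runs of 2, which have no middle sites. Place and run size can therefore not be told apart here, and this split by place was not tested. The mean log2 width was 3.64 ± 0.074 for canonical upstream and 3.33 ± 0.095 for canonical run-ending sites, a difference of 0.32 ± 0.085 (SD, n = 19 autosomes), positive on each (adjusted p = 4e-05, permutation test). It turned to -0.041 in runs of 2 (adjusted p = 0.393, permutation test).

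Both kinds had a median of 10 nt in runs of 2 and of 12 nt in runs of 3. In runs of 6 to 10 the medians were 18 nt upstream and 15 nt at the run end, and in runs of 11 to 76 they were 20 and 15 nt. Canonical sites were also set against the canonical end of their own run. Of 9076 such pairs in 6239 runs, the upstream site was wider in 54.2% and narrower in 42.3%. Of the 2160 pairs in runs of 2 it was wider in 48.0% and narrower in 47.3%. Width also went with the gap, as the median was 21 nt where the next site lay at 26 to 50 nt and 10 nt where it lay over 1500 nt away.

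Against upstream sites with the main variant signal, the difference in width was there in runs of 2 as well. Upstream ATTAAA sites at 15 to 30 nt had a median width of 11 nt (quartiles 5 and 23 nt). The mean log2 width of canonical upstream sites was 3.64 ± 0.074 against 3.34 ± 0.086 for upstream ATTAAA sites, higher by 0.30 ± 0.11 (SD, n = 19 autosomes) and on each of them (adjusted p = 4e-05, permutation test). The excess was 0.27 in runs of 2 (adjusted p = 7.3e-05, permutation test). Clusters 1 nt wide made up 5.97% of canonical upstream sites (interval 5.64 to 6.32%), 7.77% of upstream ATTAAA sites (interval 7.23 to 8.34%) and 10.99% of all upstream sites that were not canonical (interval 10.7 to 11.3%). How many reads a cluster held was not given, and the part of read depth in these widths was not tested.

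**Figure D5:**
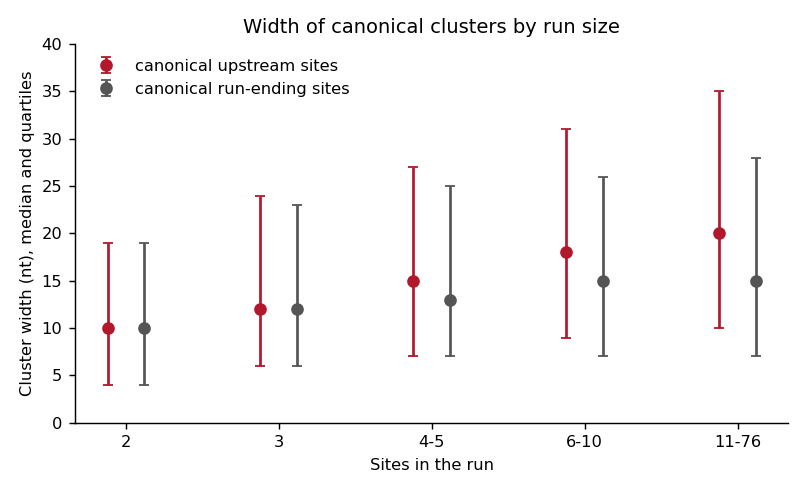
Median width in nt of canonical upstream clusters (red) and canonical run-ending clusters (grey), with quartiles as bars, by the number of sites in the run. Both medians are 10 nt in runs of 2, and they are 20 nt upstream and 15 nt at the run end in runs of 11 to 76 sites.

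The hexamer distance was part of the rule, and all canonical sets share its window of 15 to 30 nt, so the distances are given as a description. Canonical upstream sites had a mean distance of 21.7 nt, canonical run-ending sites 21.5 nt and canonical lone sites 21.4 nt, all with a median of 21 nt. The hexamer lay at 19 to 22 nt in 45.1% of canonical upstream, 46.8% of canonical run-ending and 47.2% of canonical lone sites.

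Within 1 kb, sites on the opposite strand were slightly more frequent around canonical upstream than around canonical run-ending sites, but this did not pass the test in runs of 2 and was not seen at closer range. A cluster of the opposite strand lay within 1 kb of 15.6% ± 3.11 of canonical upstream sites, 14.1% ± 2.98 of canonical run-ending sites and 16.1% ± 3.04 of other upstream sites (SD, n = 19 autosomes). The difference from canonical run-ending sites was 1.56 percentage points ± 1.76, positive on 15 autosomes (adjusted p = 0.00169, permutation test). It was 0.251 in runs of 2 (adjusted p = 0.613, permutation test) and 0.513 with runs joined at gaps up to 500 nt (adjusted p = 0.455, permutation test). The difference from other upstream sites was -0.495 percentage points ± 1.24 (adjusted p = 0.106, permutation test). Within 100 nt the share was 5.11% of canonical upstream sites (interval 4.81 to 5.44%), 5.07% of canonical run-ending sites (interval 4.68 to 5.48%) and 4.33% of other upstream sites (interval 4.16 to 4.50%). An overlap with an opposite-strand cluster was found for 2.26% of canonical upstream sites (interval 2.06 to 2.48%), 2.47% of canonical run-ending sites (interval 2.20 to 2.77%) and 1.66% of other upstream sites (interval 1.55 to 1.77%). These closer ranges were not tested.

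The identifiers of neighbouring sites were often not consecutive. Clusters with a hexamer were numbered in genome order over both strands, and most numbers were absent from the deposited catalogue. Leaving out mitochondrial clusters, 129401 were present and the highest number was 441682. Clusters without a hexamer had numbers of their own, with 15698 present and 190619 as the highest. How the absent numbers bear on the shares of each signal was not tested. For 16390 canonical upstream sites the next site of the run was also the next deposited cluster with a hexamer on either strand. At least 1 number was skipped between them in 39.3% (interval 38.6 to 40.1%). The share was 12.6% at gaps of up to 100 nt (11.5 to 13.8%), 36.1% up to 500 nt (34.9 to 37.3%), 48.9% up to 1000 nt (47.2 to 50.5%) and 60.2% up to 2000 nt (58.6 to 61.8%), and up to 22 numbers were skipped.

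At a like gap, a number was skipped less often after canonical upstream sites than after other upstream sites with a hexamer in these counts. Between 500 and 1000 nt it was 48.9% against 55.8% (interval 54.5 to 57.04%), and over 1000 nt 60.2% against 64.9% (interval 63.7 to 66.2%). Over all gaps it was 39.3% against 39.4%. This difference was not tested over autosomes, and what the skipped numbers stood for is not known. Runs, gaps, next sites and shares of signals therefore describe the deposited clusters only.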

How the data were processed

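Poly(A) RNA of 12 libraries (6 groups of 2, taken from the sample titles) was sequenced from the tail. Per the submitters' processing notes, Trimmomatic, STAR and bedtools were used, with the mm9 build. The clustering rule, the libraries used, any filter and the point from which hexamer distances are counted are not given in the sources used here. The deposited file held genomic positions, hexamer names and distances in nt, and no value per library. Starts, taken as counted from 0 because the smallest width is then 1 nt, are printed counted from 1.

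The 80 mitochondrial clusters were left out. Runs were joined at edge-to-edge gaps of up to 2000 nt. Canonical sites had AATAAA at 15 to 30 nt, and other upstream sites were all the rest, AATAAA at other distances included. Each difference was computed per autosome, averaged over 19 and tested by sign flips (100000 resamples, seed 1, smallest possible p 1e-05). P-values of the main setting were adjusted over 12 comparisons with a threshold of 0.05. The sites, comparisons and rules for the sites named were chosen with earlier results of these data known. Sites were named by the widest cluster, the 2 smallest gaps, the run with most canonical upstream sites, the longest all-canonical run, the median pair and the largest distance to a run's end, without chromosome 18. Joining, gaps and the test were tested on simulated data. Tables were handled with pandas 2.3.3 under Python 3.11.15, tests used numpy 2.4.6 with scipy 1.17.1 for the adjustment, and plots matplotlib 3.10.9. Sequence around the sites was not used here.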

Additional observations from a re-analysis of the deposited data

How the results depend on the processing

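The 12 comparisons were repeated under 8 alternatives (runs joined at up to 500 or 5000 nt, a hexamer window of 10 to 35 nt, clusters wider than 50 nt or 1 nt wide left out, each strand alone, runs of more than 10 sites left out) and 3 chosen after seeing the data (runs of 2 only, sites over 100 nt from their neighbours, clusters 6 to 20 nt wide). The added ones are given for part of the comparisons, clusters 6 to 20 nt wide for hexamer distance only. P-values were adjusted within each alternative over the comparisons that could be computed in it. Of 115 values, 6 turned in sign, 5 kept their direction but no longer passed the threshold and 2 kept it and came to pass, all given here. The others kept both. The contrast of most upstream and middle sites was 3.46 percentage points at 500 nt, -0.874 without wide clusters, -0.0876 on the plus strand, -1.75 without long runs and -3.97 among separated sites. Against 0.00726 as reported, which did not pass, the first (adjusted p = 0.00022, permutation test) and the last 2 (adjusted p = 0.00141 and 9.2e-05, permutation test) passed, the last 2 with the sign turned. In runs of 2, log2 width against canonical run-ending sites was -0.041, hexamer distance, whose window the rule set, 0.0863 nt, log2 gap against ATTAAA sites 0.028 and opposite-strand sites against run-ending sites 0.251 points. The last was also 0.513 at 500 nt and 0.995 on the minus strand (adjusted p = 0.0585, permutation test). Opposite-strand sites against other upstream sites gave 0.183 with the wider window and -0.903 without long runs (adjusted p = 0.026, permutation test). The causes were not tested. Gaps over 1000 nt do not exist in runs joined at 500 nt, so that value was not run. No paired analysis was possible because the catalogue carries no column per library, and for the same reason no replicate could be left out. Depth per library is unknown.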
